A study of Mus musculus with 8 samples.

Results

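The endoplasmic reticulum (ER) chaperones and the genes of the unfolded protein response were compared between cortical bone of mice labelled KO and control for Ripk4, which encodes a receptor-interacting serine/threonine kinase. The members were 36 genes chosen by symbol, out of the 55400 gene entries of the deposited table after both rows of Ddit3 were summed. All 36 were found and all 36 passed the filter on low counts. They were read in 5 groups: 15 chaperones and folding enzymes, 4 genes of the translocon, 7 genes of ER-associated degradation, 4 sensors and effectors (Atf6, Ern1, Eif2ak3 and Xbp1), and 6 genes of the downstream stress response. The KO group was 4 libraries of genotype UbcCre/ERT2 Ripk4fl/fl, and the control group was 4 libraries of genotype Ripk4fl/fl. All 8 came from C57BL/6J cortical bone, the compact shell around the marrow, so the control mice carry the floxed alleles too and differ from the KO mice by the Cre. That Cre is driven by the ubiquitin C promoter, which is active in most cell types, and is fused to a modified estrogen receptor that needs a drug ligand. No source used here states a drug treatment, and the labels give 4 weeks without saying whether it is an age or an interval. The series title places the question in bone-forming lineage cells and names Mfn2, a mitochondrial fusion protein. Nothing in the labels says which libraries came from separate animals, so p-values measure the spread between these libraries.

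The ER folds and modifies proteins that a cell secretes, and bone-forming cells, which secrete collagen, and plasma cells, which secrete antibody, both keep a large ER. Newly made chains enter through the Sec61 channel, are bound by chaperones such as BiP (Hspa5) and the lectins calnexin and calreticulin, and gain disulfide bonds from the protein disulfide isomerases. Chains that fail to fold are drawn back to the cytosol and degraded. When unfolded chains build up, the sensors IRE1 (Ern1), PERK (Eif2ak3) and ATF6 start the unfolded protein response: IRE1 splices Xbp1 mRNA, ATF6 is cut to release a transcription factor, and PERK phosphorylates eIF2 alpha, which favours translation of ATF4. XBP1 and ATF6 drive chaperone and degradation genes through ER stress response elements in promoters, and ATF4 drives amino acid and stress genes through C/EBP-ATF response elements.

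Promoter sequences are shown for the pair of chaperones that passed the test (Pdia4 and Hsp90b1), for the classical ER stress promoters Hspa5 and Calr, which did not, and for Herpud1 and Asns, which had the other elements. Each is 300 bases, 250 before and 50 after the start site, from RefSeq on GRCm38.p6, written along the gene's own strand. Capitals mark matches to the ER stress response element ERSE (CCAAT and CCACG with 9 bases between them), to ERSE-II (ATTGG and CCACG with 1 base between them) or to the C/EBP-ATF response element (TGATGNAA), each searched on both strands. The windows are chr6:47813463-47813762 (minus strand), chr10:86705395-86705694 (minus), chr2:34771840-34772139 (plus), chr8:84846882-84847181 (minus), chr8:94386179-94386478 (plus) and chr6:7693160-7693459 (minus). The Pdia4 window lies wholly upstream of the gene start in the annotation of the deposited table, so the absence of a match there describes the RefSeq start only.
Pdia4: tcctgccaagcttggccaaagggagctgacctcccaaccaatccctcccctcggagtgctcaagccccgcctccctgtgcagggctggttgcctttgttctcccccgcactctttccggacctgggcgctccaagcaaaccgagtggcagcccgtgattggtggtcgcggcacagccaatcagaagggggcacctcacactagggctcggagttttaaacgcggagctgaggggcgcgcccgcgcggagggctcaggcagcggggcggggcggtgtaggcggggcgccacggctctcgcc
Hsp90b1: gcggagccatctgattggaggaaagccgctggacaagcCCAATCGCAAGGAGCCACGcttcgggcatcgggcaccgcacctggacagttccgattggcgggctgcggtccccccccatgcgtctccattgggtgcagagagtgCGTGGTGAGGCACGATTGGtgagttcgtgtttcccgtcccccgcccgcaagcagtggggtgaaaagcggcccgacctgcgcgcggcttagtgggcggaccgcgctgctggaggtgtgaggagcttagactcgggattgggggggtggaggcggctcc
Hspa5: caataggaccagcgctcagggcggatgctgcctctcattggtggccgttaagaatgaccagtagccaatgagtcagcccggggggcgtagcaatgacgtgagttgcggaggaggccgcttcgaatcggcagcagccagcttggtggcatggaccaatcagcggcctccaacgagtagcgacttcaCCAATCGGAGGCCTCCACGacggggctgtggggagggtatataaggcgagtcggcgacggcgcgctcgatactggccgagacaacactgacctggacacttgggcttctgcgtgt
Calr: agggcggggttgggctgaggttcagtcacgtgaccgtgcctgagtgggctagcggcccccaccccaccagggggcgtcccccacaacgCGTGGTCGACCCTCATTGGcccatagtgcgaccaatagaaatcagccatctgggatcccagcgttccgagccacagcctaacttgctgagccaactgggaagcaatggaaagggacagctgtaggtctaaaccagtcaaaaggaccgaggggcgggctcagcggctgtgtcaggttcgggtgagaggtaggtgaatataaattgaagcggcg
Herpud1: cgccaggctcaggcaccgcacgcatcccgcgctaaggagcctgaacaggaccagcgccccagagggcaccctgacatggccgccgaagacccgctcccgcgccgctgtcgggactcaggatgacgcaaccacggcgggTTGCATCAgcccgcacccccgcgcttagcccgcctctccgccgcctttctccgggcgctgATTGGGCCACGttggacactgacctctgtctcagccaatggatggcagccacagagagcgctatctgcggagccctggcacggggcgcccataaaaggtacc
Asns: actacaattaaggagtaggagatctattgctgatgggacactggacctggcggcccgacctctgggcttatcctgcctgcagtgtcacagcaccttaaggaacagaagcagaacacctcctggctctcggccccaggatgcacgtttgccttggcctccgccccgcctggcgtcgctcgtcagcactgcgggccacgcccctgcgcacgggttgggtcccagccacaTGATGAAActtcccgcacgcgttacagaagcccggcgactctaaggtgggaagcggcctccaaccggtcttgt

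Of the 36 members, 30 had an entry in the promoter table; Derl1, Atf6, Sec61a1, Hyou1, Ssr2 and Manf had none. ERSE was found in 9 of the 30, against 37 of 27025 gene symbols with a promoter (0.137%). The 9 were Hspa5, Hsp90b1, Calr, Canx, Dnajc3, Pdia6, Creld2, Derl3 and Syvn1. The match in Hspa5 began 65 bases before the start site, that in Calr 162 bases before it, and Hsp90b1 held a pair of matches. ERSE-II was found in Herpud1 and Dnajb11, 6.67% of the 30 against 0.0444% of all symbols. The C/EBP-ATF element was found in Asns, Chac1, Trib3 and Herpud1, 13.3% against 4.51%. The element TGACGTGG bound by XBP1 and ATF6 was found in 0 of the 30, against 0.714% of all symbols. These are matches of letters, and binding was not measured. The members were chosen from pathways described above as driven through such elements. Their higher shares are therefore not a finding about KO and control.

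Library totals ran from 61092688 to 66774693 estimated counts, with 22817 to 24524 genes above 0. Mitochondrial genes took 5.56% to 6.09% of counts in KO libraries and 6.17% to 16.1% in control libraries. Ripk4 itself had 0, 12, 0 and 0 estimated counts in KO 1 to 4, against 10, 4, 0 and 4 in control 1 to 4, so it was barely detected anywhere and its level did not check the labels. On the first principal component, which held 36.47% of the variance, KO libraries ran from -131.9 to -7.56 and control libraries from 30.15 to 76.4. KO 4, at -131.9, stood apart from KO 1 to 3. Bone markers were present in both groups, at different levels. The summed level of 12 osteoblast markers ran from 1148 to 2539 FPKM (fragments, corrected for the length of the gene and the size of the library) in KO libraries and from 4505 to 9571 FPKM in control libraries. The highest of these KO sums was that of KO 4, where the marker Spp1 alone had 1880 FPKM. Col1a1, the main collagen chain of bone, averaged 197 ± 118 FPKM in KO and 2049 ± 852 FPKM in control (SD, n = 4 each). The summed level of 12 neutrophil markers ran from 60740 to 72660 FPKM in KO and from 31020 to 44080 FPKM in control. The summed level of 10 plasma cell markers ran from 5286 to 7213 FPKM in KO and from 3199 to 5515 FPKM in control, and nearly all of it was the antibody light chain Igkc (4856 to 6859 FPKM in KO and 2905 to 5093 FPKM in control). These are bulk libraries, in which fewer cells of a type and less RNA per cell cannot be told apart, and the part of these shifts in the results that follow was not tested.

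The chaperones lay lower in KO and the sensors higher, but the differences were small and few passed the test. By edgeR's quasi-likelihood test with Benjamini-Hochberg adjustment over 20152 genes, 2 of 36 members fell (Pdia4 and Hsp90b1, 5.56%) and 0 rose. Over all genes tested, 1013 fell (5.03%) and 1070 rose (5.31%), 10.3% in all, so the members' share that fell was close to the background. At an unadjusted p under 0.05 there were 8 members, 5 lower and 3 higher in KO, against 28.1% of all genes. DESeq2 called 1 member higher, Eif2ak3, and so did limma on FPKM. The number of members that fell was 1 without KO 4 and 0 without KO 2, KO 3 or any 1 of the control libraries. Levels of KO and control libraries did not overlap for 3 members (8.33%), against 20.7% of all genes. The log2 fold change (KO over control) was below 0 for 20 members and above 0 for 16, with a median of -0.08, against -0.02 over all genes.

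**Figure D1:**
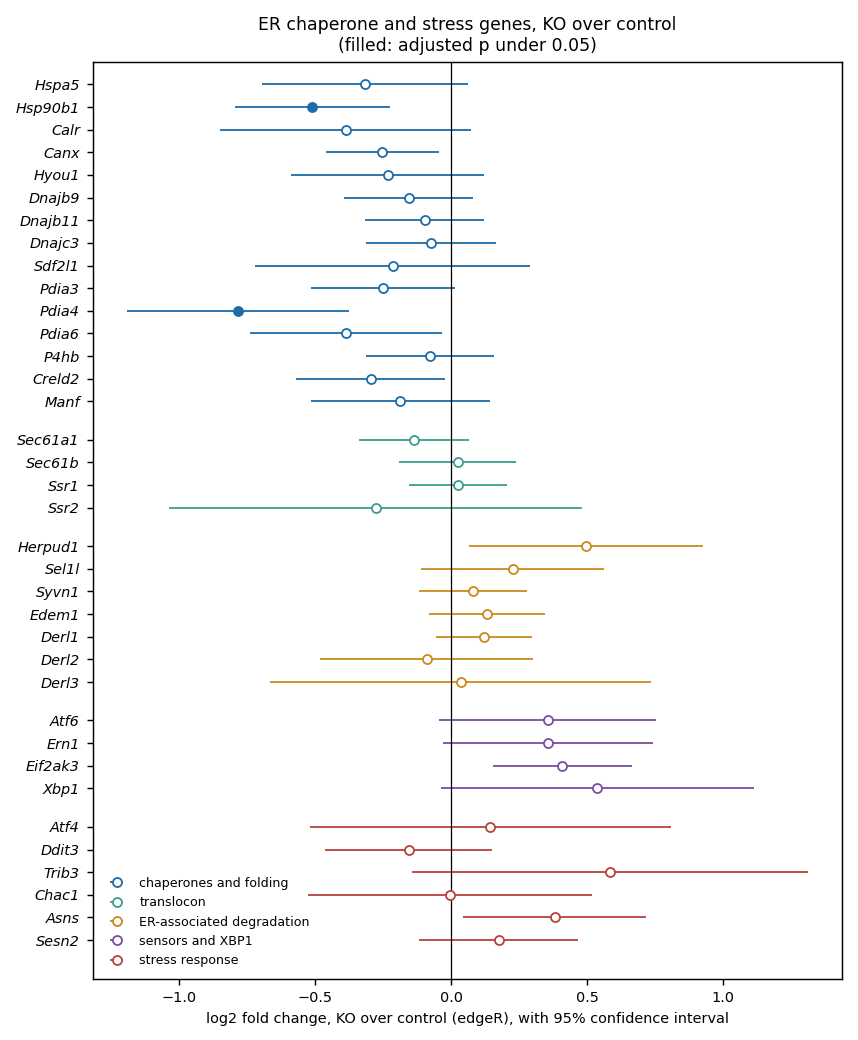
Log2 fold change of each of the 36 genes, KO over control, from edgeR, with its 95% confidence interval (horizontal axis), grouped by role (colours). Filled points are the 2 genes with an adjusted p under 0.05; all 15 chaperones lie left of 0 and all 4 sensors lie right of it.

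Among the chaperones and folding enzymes, all 15 fold changes were below 0, with a median of -0.25 and a range from -0.78 to -0.07. Of these 15, 2 fell and 0 rose. The largest fold change was that of Pdia4 (ERp72, ENSMUSG00000025823, GRCm38 chr6:47796141-47813430, minus strand), a protein disulfide isomerase of the ER lumen. It had 40.5, 31.9, 27.2 and 20.7 FPKM in KO 1 to 4, against 50.1, 61.3, 47.1 and 52.2 FPKM in control 1 to 4. Every KO library was below every control library. The mean was 30.1 ± 8.35 FPKM in KO and 52.7 ± 6.12 FPKM in control (SD, n = 4 each), a fold of 0.580 (95% confidence interval 0.438 to 0.770) and a log2 fold change of -0.78 ± 0.18 (SE, edgeR adjusted p = 0.0301). The call was lost without KO 2, KO 3 or any 1 of the 4 control libraries, where the adjusted p ran up to 0.0852.

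Hsp90b1 (GRP94, ENSMUSG00000020048, GRCm38 chr10:86690209-86705509, minus strand) is the ER member of the HSP90 chaperone family. It had 110.4, 91.4, 84.9 and 73.5 FPKM in KO 1 to 4, against 126, 149.7, 111 and 136 FPKM in control 1 to 4. The groups were separated by a narrow gap, between KO 1 and control 3. The mean was 90.1 ± 15.4 FPKM in KO and 131 ± 16.1 FPKM in control (SD, n = 4 each), a fold of 0.702 (0.576 to 0.856) and a log2 fold change of -0.51 ± 0.13 (SE, edgeR adjusted p = 0.038). The call was lost without KO 2, KO 3, KO 4 or any 1 of the 4 control libraries (adjusted p up to 0.101), and when low genes were not filtered (0.0548) or libraries were scaled by their totals alone (0.0615). On the opposite strand, 1810014B01Rik overlaps 3918 bases of Hsp90b1, at a mean of 465 counts beside 31701; no source used here gives the strand setting of the counting.

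Hspa5 (ENSMUSG00000026864, GRCm38 chr2:34771970-34777547, plus strand) encodes BiP, the HSP70 chaperone that also holds the sensors inactive. It had 102, 84.7, 64.4 and 69.0 FPKM in KO 1 to 4, against 82.8, 112, 93.4 and 118 FPKM in control 1 to 4. KO 1 was above control 1 and control 3, so the groups overlapped. The log2 fold change was -0.32 ± 0.17 (SE, edgeR adjusted p = 0.257), a fold of 0.803 with an interval from 0.618 to 1.04. Calr, the lectin chaperone calreticulin, had the highest mean level of all 36 members, 240.0 FPKM over the 8 libraries. It had 276, 214, 205 and 127 FPKM in KO 1 to 4, against 279, 325, 215 and 279 FPKM in control 1 to 4. KO 4 alone lay far below the rest, and the log2 fold change was -0.39 ± 0.20 (SE, edgeR adjusted p = 0.254), or -0.23 without KO 4.

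Pdia6, Canx and Creld2 also had an unadjusted p under 0.05 and missed the adjusted threshold. Pdia6, a disulfide isomerase, had 57.9, 47.1, 44.0 and 34.2 FPKM in KO 1 to 4, against 57.9, 72.7, 48.8 and 65.2 FPKM in control 1 to 4 (edgeR adjusted p = 0.143). Canx, the membrane-bound lectin calnexin, had 51.9, 46.3, 43.6 and 40.1 FPKM in KO 1 to 4, against 54.1, 59.8, 48.9 and 58.3 FPKM in control 1 to 4 (adjusted p = 0.111). Creld2, an ER stress-inducible protein with EGF-like domains, had 30.7, 26.6, 22.6 and 21.3 FPKM in KO 1 to 4, against 30.02, 33.5, 28.4 and 34.7 FPKM in control 1 to 4 (adjusted p = 0.149). In each of these KO 1 reached into the control range. Pdia3, the isomerase that works with calnexin and calreticulin, had a log2 fold change of -0.25 ± 0.12 (adjusted p = 0.199). P4hb, which is both a disulfide isomerase and a subunit of the prolyl 4-hydroxylase that modifies collagen, had 240.3, 212, 192 and 205 FPKM in KO 1 to 4, against 249.8, 254, 202 and 211 FPKM in control 1 to 4. Its log2 fold change was -0.08, the second smallest in size of the chaperones, and 3 of its KO libraries lay within the control range.

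The other chaperones were the HSP110-family BiP partner Hyou1, the J-domain co-chaperones Dnajb9, Dnajb11 and Dnajc3, the BiP-complex protein Sdf2l1 and the secreted ER stress protein Manf. Their log2 fold changes ran from -0.23 (Hyou1) to -0.07 (Dnajc3), with adjusted p from 0.371 to 0.694. Manf is annotated across a span that also holds Rbm15b on the same strand and Dcaf1 on the opposite one, so its counts are uncertain. The order of the libraries was shared among the chaperones: KO 1 was the highest KO library for 14 of the 15, and KO 4 (9 genes) or KO 3 (6 genes) was the lowest. Among control libraries, control 3 was the lowest for 12 of the 15. Their summed level was 1202, 1013, 910 and 796 FPKM in KO 1 to 4, against 1208, 1389, 1048 and 1256 FPKM in control 1 to 4. KO 1 was therefore inside the control range, and KO 2, 3 and 4 were below it. The KO mean was 980 ± 172 FPKM and the control mean 1225 ± 141 FPKM (SD, n = 4 each), so KO held 80.0% of the control sum.

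**Figure D2:**
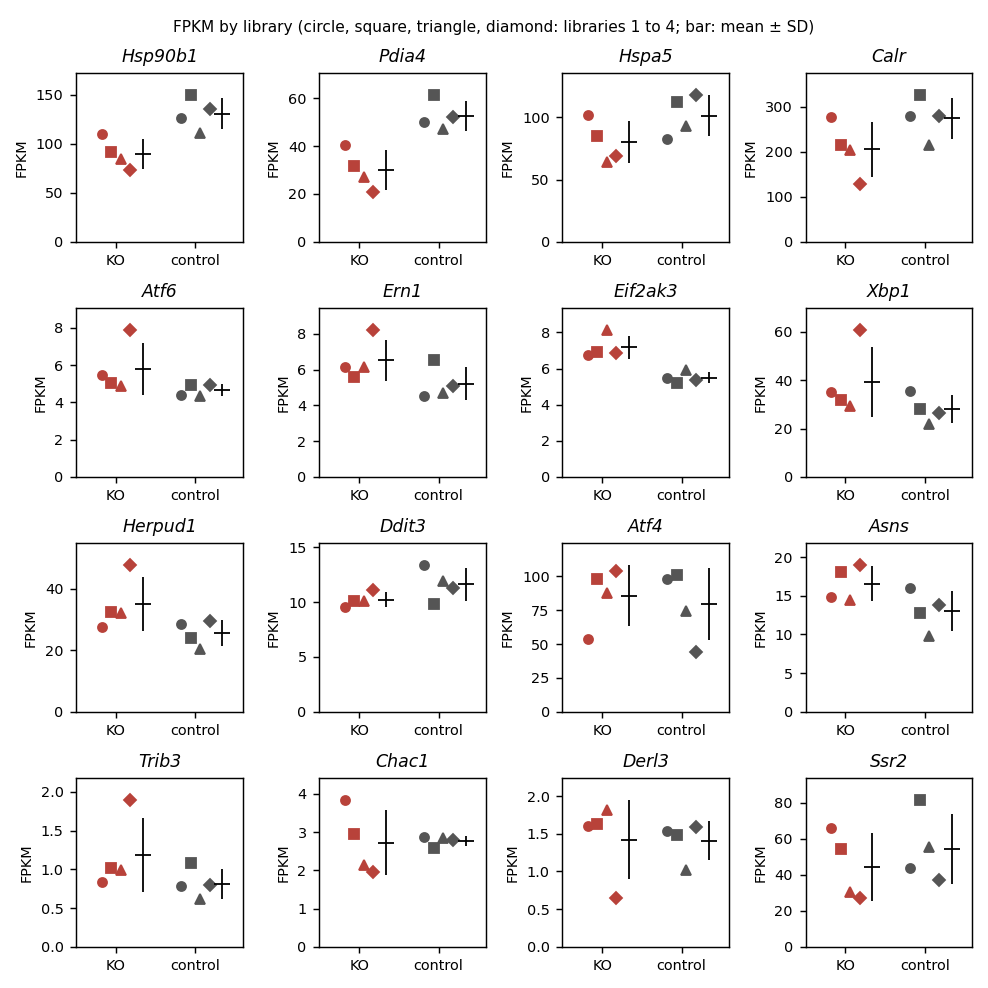
FPKM (vertical axes, from 0) of 16 of the ER genes in each library, KO left and control right; marker shapes are libraries 1 to 4 of each group and bars are the mean ± SD of 4. Pdia4, Hsp90b1 and Eif2ak3 do not overlap between the groups, and KO 4 is the highest library for Atf6, Ern1, Xbp1, Herpud1 and Trib3.

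In the translocon, through which new chains enter the ER, 0 of 4 genes rose or fell. Sec61b and Ssr1, a channel subunit and a translocon-associated protein, had log2 fold changes of 0.02 and 0.02, and Sec61a1, the channel itself, had -0.14 (edgeR adjusted p = 0.353). Ssr2, another translocon-associated protein, was the least even of the 4: it had 66.0, 54.4, 30.6 and 27.0 FPKM in KO 1 to 4, against 43.9, 81.6, 55.4 and 37.1 FPKM in control 1 to 4. Its groups overlapped widely (log2 fold change -0.28 ± 0.33, adjusted p = 0.634).

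Among the genes of ER-associated degradation, 0 of 7 rose or fell, and 6 of the 7 fold changes were above 0 (median 0.12). Herpud1, a membrane protein that helps assemble the degradation complex, had 27.7, 32.6, 32.1 and 47.6 FPKM in KO 1 to 4, against 28.5, 24.0, 20.3 and 29.4 FPKM in control 1 to 4. KO 4 was the highest and KO 1 lay inside the control range. The log2 fold change was 0.50 ± 0.19 (SE, edgeR adjusted p = 0.129), or 0.28 without KO 4. Sel1l and Syvn1, the adaptor and the ubiquitin ligase of the complex, had 0.23 and 0.08 (adjusted p = 0.359 and 0.590). Edem1, a mannosidase-like lectin that marks glycoproteins for degradation, had 0.13, and the derlin Derl1, part of the exit channel, had 0.12. Derl2 and Derl3, its relatives, had -0.09 and 0.03, and Derl3 was low in KO 4, at 0.642 FPKM beside 1.598, 1.63 and 1.81 FPKM in KO 1 to 3 and 1.02 to 1.59 FPKM in control libraries.

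All 4 sensors and effectors had fold changes above 0 (median 0.38), and 0 of 4 passed the test. Eif2ak3 (ENSMUSG00000031668, GRCm38 chr6:70844515-70905245, plus strand), which encodes the kinase PERK, came closest. It had 6.77, 6.91, 8.13 and 6.87 FPKM in KO 1 to 4, against 5.47, 5.20, 5.91 and 5.36 FPKM in control 1 to 4. Every KO library was above every control library. The mean was 7.17 ± 0.640 FPKM in KO and 5.48 ± 0.308 FPKM in control (SD, n = 4 each), a fold of 1.33 (1.11 to 1.58) and a log2 fold change of 0.41 ± 0.11 (SE, edgeR adjusted p = 0.0528). Eif2ak3 passed in 8 of the 20 alternative settings run for it and not in 12. Its adjusted p was 0.0232 with DESeq2, 0.0455 and 0.0468 with limma on FPKM, and 0.0472 without control 3. Without any other single library it did not pass (adjusted p up to 0.1445), so the call turns on the method and on the libraries.

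Xbp1 (ENSMUSG00000020484, GRCm38 chr11:5520659-5525893, plus strand) had 35.3, 31.9, 29.5 and 60.7 FPKM in KO 1 to 4, against 35.6, 28.2, 22.03 and 26.4 FPKM in control 1 to 4. KO 4 stood alone and the other 3 KO libraries lay within the control range. The log2 fold change was 0.54 ± 0.25 (SE, edgeR adjusted p = 0.207), or 0.21 without KO 4; a gene-level table does not separate the spliced from the unspliced form. Atf6 had 5.47, 5.02, 4.86 and 7.87 FPKM in KO 1 to 4, against 4.397, 4.94, 4.34 and 4.95 FPKM in control 1 to 4. Ern1 had 6.13, 5.599, 6.12 and 8.2 FPKM in KO 1 to 4, against 4.54, 6.55, 4.70 and 5.08 FPKM in control 1 to 4. KO 4 was again the highest for both, and each had a log2 fold change of 0.36 (adjusted p = 0.228 for Atf6 and 0.213 for Ern1). Without KO 4 the median of the 4 genes was 0.21.

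In the downstream stress response 0 of 6 genes rose or fell, and 4 fold changes were above 0 and 2 below (median 0.16, or 0.05 without control 4). Atf4, the transcription factor whose translation PERK favours, had 53.5, 98.3, 87.5 and 104 FPKM in KO 1 to 4, against 97.9, 101, 74.6 and 43.8 FPKM in control 1 to 4. Each group had 1 low library, KO 1 and control 4, and the groups overlapped over nearly their whole range (log2 fold change 0.14 ± 0.29, edgeR adjusted p = 0.791). Ddit3 encodes CHOP, a transcription factor linked to cell death in prolonged stress. It had 9.54, 10.1, 10.1 and 11.1 FPKM in KO 1 to 4, against 13.4, 9.81, 11.95 and 11.3 FPKM in control 1 to 4. The log2 fold change was -0.16 ± 0.13 (SE, adjusted p = 0.494), and the interval of the fold, 0.726 to 1.11, held no rise above 1.11. Ddit3 overlaps Mars1 by 68 bases.

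Asns, Trib3, Sesn2 and Chac1 are targets of ATF4. Asns, which makes asparagine, had 14.8, 18.0, 14.5 and 19.0 FPKM in KO 1 to 4, against 16.0, 12.8, 9.75 and 13.9 FPKM in control 1 to 4 (log2 fold change 0.38 ± 0.15, edgeR adjusted p = 0.133). Trib3, a pseudokinase, was the lowest of the 36, with 0.842, 1.01, 0.996 and 1.89 FPKM in KO 1 to 4, against 0.785, 1.08, 0.611 and 0.791 FPKM in control 1 to 4 (0.58 ± 0.32, adjusted p = 0.275, or 0.23 without KO 4). Sesn2, a stress-induced regulator of mTORC1, had 0.17 ± 0.13 (adjusted p = 0.417). Chac1, which breaks down glutathione, had 3.84, 2.96, 2.15 and 1.96 FPKM in KO 1 to 4, against 2.87, 2.58, 2.84 and 2.80 FPKM in control 1 to 4. The Chac1 means were close (log2 fold change 0.00 ± 0.23, adjusted p = 0.991), but its KO libraries lay on both sides of the control range.

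**Figure D3:**
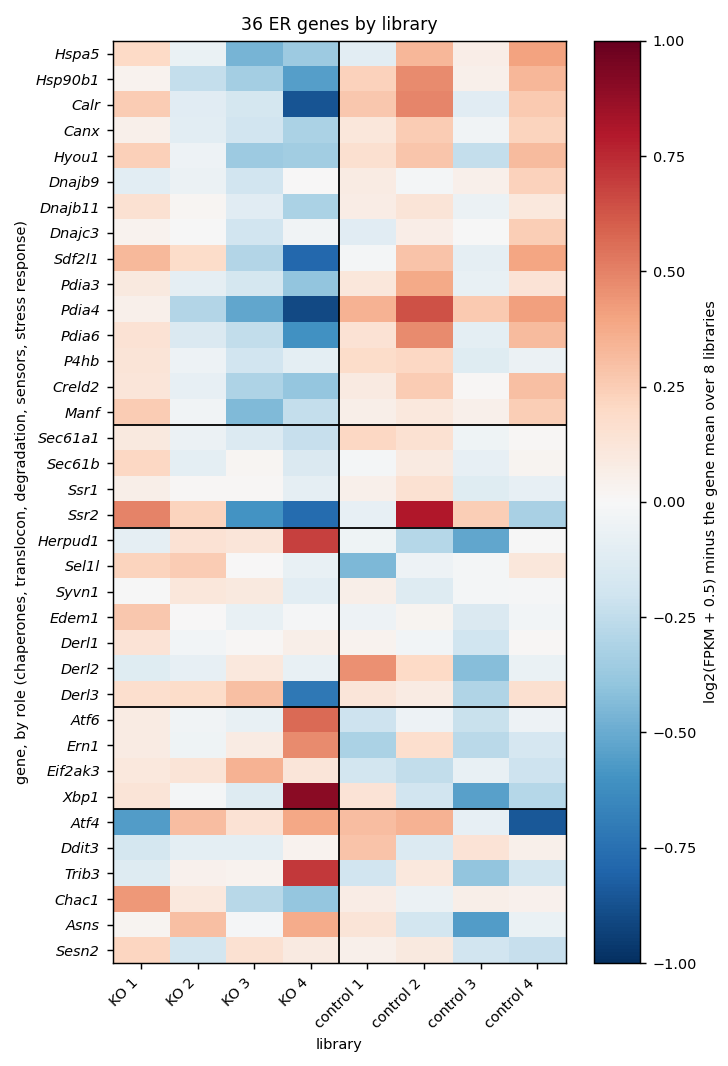
Log2(FPKM + 0.5) of each gene minus its mean over the 8 libraries (colour), with genes by role down the page and libraries KO 1 to 4 then control 1 to 4 across it. KO 4 has the lowest values of most chaperones and the highest of Xbp1, Herpud1 and Trib3.

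The chaperones were set against the stress-response genes within each library, as the mean over each group of log2(FPKM + 0.5) centred on each gene's own mean. The chaperone mean was 0.13, -0.07, -0.28 and -0.41 in KO 1 to 4, against 0.11, 0.29, -0.02 and 0.26 in control 1 to 4. The chaperone mean minus the stress-response mean was 0.16, -0.15, -0.27 and -0.61 in KO 1 to 4, against 0.00, 0.26, 0.15 and 0.46 in control 1 to 4, and these overlapped through KO 1. The chaperone mean minus the mean of the sensors was 0.04, -0.09, -0.34 and -0.93 in KO 1 to 4, against 0.25, 0.37, 0.26 and 0.44 in control 1 to 4, and these did not overlap. KO 4 had the lowest value of each. The contrast with the sensors joins groups whose fold changes lay on opposite sides of 0, so its separation is not further evidence. Among all single genes tested, levels of the groups did not overlap for 20.7%. The 15 chaperones remained below 0 and the 4 sensors above 0 in each of the 21 alternative settings, with chaperone medians from -0.37 to -0.20. These settings refit the same libraries, and the chaperones share an order of libraries, so their signs are not independent. All 10 skeletal muscle and all 8 macrophage markers were also below 0 in the main fit, with 0 called.

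**Figure D4:**
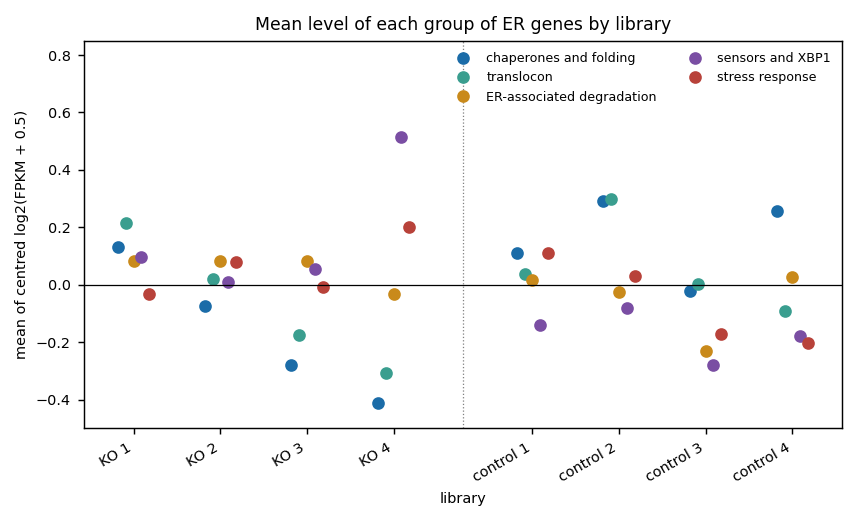
Mean over each group of ER genes of log2(FPKM + 0.5) centred on the gene's mean (vertical axis) in each library, KO left of the dotted line and control right of it. The chaperone mean is lowest, -0.41, and the sensor mean highest, 0.52, in KO 4, and sensors lie above 0 in every KO library and below 0 in every control library.

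Set beside the promoter sequences shown above, the 9 members with an ERSE had a median log2 fold change of -0.30, and the 21 with a promoter and no ERSE had 0.02. Within the chaperones alone the medians were -0.32 (7 genes with ERSE) and -0.19 (6 genes without). Pdia4, with the lowest fold change, had no match in its window, and Derl3 and Syvn1, with an ERSE, were above 0.

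Genes of the same pathways outside the 36 were read from 6 further lists of 162 tested genes. Of these 16 fell (9.88%) and 7 rose (4.32%), against 5.03% and 5.31% of all genes tested. Their log2 fold changes had a median of -0.08. The number that fell was 6 without KO 3, control 2 or control 3 and 8 without control 1 or control 4, and the number that rose was 4 without KO 1, 3 without KO 3 or control 1 and 2 without control 2, control 3 or control 4. Of 29 other folding genes 5 fell (17.2%) and 2 rose (6.9%), with a median of -0.19, and 3 of the 5 were FK506-binding prolyl isomerases of the ER. Fkbp9 averaged 16.4 ± 2.99 FPKM in KO and 43.8 ± 4.11 FPKM in control (log2 fold change -1.40, edgeR adjusted p = 0.00351). Fkbp7 averaged 6.30 ± 1.31 FPKM in KO and 18.1 ± 3.45 FPKM in control (-1.51, adjusted p = 0.00846). Fkbp14, an isomerase that acts on collagen, averaged 1.90 ± 0.407 FPKM in KO and 5.02 ± 0.272 FPKM in control (-1.37, adjusted p = 0.00741). Tmx4, a membrane thioredoxin-like protein, rose, at 8.15 ± 0.774 FPKM in KO and 5.19 ± 0.448 FPKM in control (0.69, adjusted p = 0.00973; SD, n = 4 each throughout). These 4 calls held without any 1 library.

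In ER-to-Golgi transport 7 of 30 genes fell (23.3%) and 0 rose (median -0.08). Kdelr3 and Kdelr2 encode receptors that return escaped chaperones from the Golgi. Kdelr3 averaged 6.79 ± 3.61 FPKM in KO and 22.2 ± 4.31 FPKM in control (log2 fold change -1.70, edgeR adjusted p = 0.0240), and its call was lost without KO 3, control 2 or control 3 (adjusted p up to 0.0719). Kdelr2 averaged 36.1 ± 4.13 FPKM in KO and 52.3 ± 5.40 FPKM in control (-0.51, adjusted p = 0.0267), and its call was lost without KO 3, control 1, control 2 or control 3 (adjusted p up to 0.0810). Lman1, a cargo receptor, and Creb3l2, a transcription factor of the ATF6 type, also fell (-0.75 and -0.76, adjusted p = 0.0124 and 0.0107), also without any 1 library.

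In the other lists few genes passed. Of 23 other ER-associated degradation genes 2 rose (8.7%) and 0 fell. The 2 were Ufd1 (0.57, edgeR adjusted p = 0.0107) and Nploc4 (0.34, adjusted p = 0.0469), partners in the complex that pulls ubiquitinated chains from the membrane. Of 36 other ATF4 and integrated stress response genes 2 fell (5.56%) and 1 rose (2.78%). Pycr1, a proline-making enzyme, averaged 0.833 ± 0.542 FPKM in KO and 3.48 ± 0.786 FPKM in control (SD, n = 4 each; -2.05, adjusted p = 0.0223), and its call was lost without KO 3, control 2 or control 3 (adjusted p up to 0.0694). Atf5, a transcription factor, fell (-0.57, adjusted p = 0.0162, lost without control 4, where it was 0.0514), and Eif4ebp1, a translation repressor, rose (0.72, adjusted p = 0.0351). Of 16 other sensors and regulators 2 rose (12.5%) and 1 fell (6.25%). Ppp1r15b, which directs dephosphorylation of eIF2 alpha, had 58.9 FPKM in KO 4, and 36.1 to 37.2 FPKM in the other KO libraries, against a control mean of 25.9 ± 1.98 FPKM (SD, n = 4; 0.74, adjusted p = 0.0381). Map3k5, the kinase ASK1, rose (0.47, adjusted p = 0.0499), and Mbtps1, the protease that cuts ATF6, fell (-0.34, adjusted p = 0.0455). Of 28 other translocation and N-glycosylation genes 1 fell (3.57%), Tusc3, a subunit of the oligosaccharyltransferase (-0.43, adjusted p = 0.0373). The calls of Eif4ebp1 (KO 1), Ppp1r15b (KO 3), Map3k5 (KO 1, 3 and 4), Nploc4 (KO 2, 3 and 4), Tusc3 (KO 1, 2 and 3) and Mbtps1 (each KO library) were lost without the KO library named and without each of the 4 control libraries, with adjusted p up to 0.135. That of Ufd1 held without any 1 library.

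**Figure D5:**
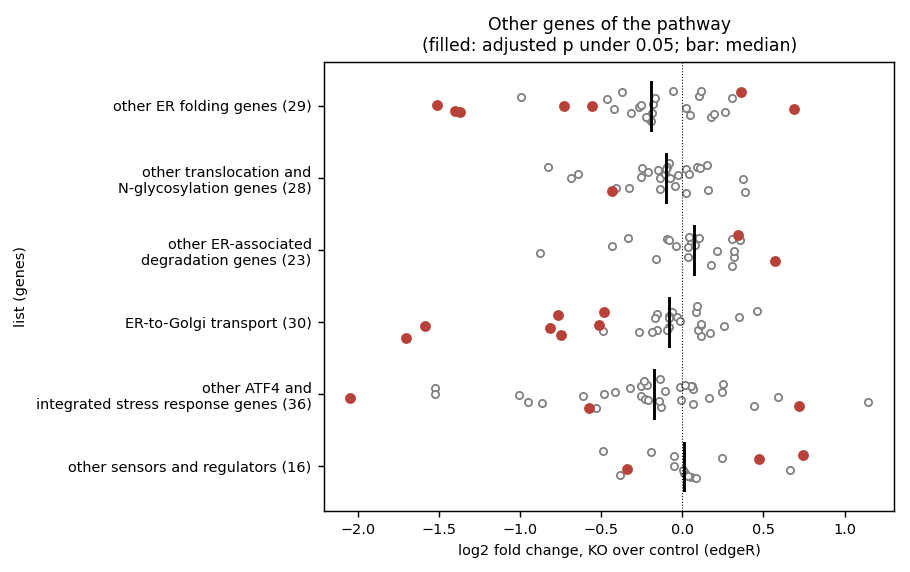
Log2 fold change, KO over control (horizontal axis), of each of the 162 other pathway genes, by list (rows, with the number of genes). Filled points passed the test and bars are medians; the filled points farthest left are Pycr1, Kdelr3, Creb3l1, Fkbp7, Fkbp9 and Fkbp14.

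Cell type markers moved in the same comparison. Of 12 osteoblast markers 7 fell (median log2 fold change -1.69), with Bglap, which encodes osteocalcin, at -4.42 (edgeR adjusted p = 0.00351). The 2 above 0 were Phospho1 (0.61, adjusted p = 0.173) and Spp1 (0.02, adjusted p = 0.987). Of 7 osteocyte markers 3 fell (median -1.77), and their summed level ran from 83.8 to 421 FPKM in KO and from 417 to 1045 FPKM in control. The 1 above 0 was Fgf23 (1.89, adjusted p = 0.138), at 1.61 to 22.6 FPKM in KO, highest in KO 4, and 1.45 to 3.3 FPKM in control. Of 12 neutrophil markers 10 rose (median 0.77), S100a8 among them (0.87, adjusted p = 0.0133). Of 10 plasma cell markers 1 rose, Tnfrsf13b (0.70, adjusted p = 0.0192), with 7 fold changes above 0 and 3 below (median 0.37). The 3 below 0 were Sdc1 (-0.34, adjusted p = 0.0952), Ighm (-0.24) and Prdm1 (-0.21), and Mzb1, Irf4 and Tnfrsf17 were lowest of the 8 libraries in KO 4. The plasma cell genes Jchain and Mzb1, the second an ER folding partner of antibody, had 0.54 and 0.30 (adjusted p = 0.247 and 0.568), and Mzb1 was -0.09 without KO 1. Of 10 muscle, 8 erythroid and 8 macrophage markers 0 rose or fell, with medians of -0.90, 0.53 and -0.35. Their content was uneven between libraries. The muscle sum ran from 204 to 1622 FPKM in KO and from 127 to 3254 FPKM in control, highest in control 3. The erythroid sum ran from 37910 to 56250 FPKM in KO and from 16540 to 46800 FPKM in control, lowest in control 3. Of 8 chondrocyte markers, 7 of them tested, 2 fell, and their summed level ran from 6.02 to 33.4 FPKM in KO and from 56.0 to 123 FPKM in control. Of 7 endothelial markers 3 fell. Of 8 osteoclast markers 1 rose, Mmp9 (0.74, edgeR adjusted p = 0.0341), but 6 fold changes were below 0 and 2 above (median -0.29). How far the fold changes of the ER genes follow these markers was not tested.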

How the data were processed

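RNA from cortical bone was sequenced in 8 libraries, 4 KO and 4 control. The authors deposited 1 table that gives each gene an estimated count and an FPKM (scaled by gene length and library size) in each library; the deposited counts are whole numbers. The submitters' processing notes name HISAT2 2.0.4, StringTie 1.3.4d, DESeq2 and GRCm38 without a role, and no source used here gives the counting tool or its strand setting. Low counts pile up at 4, 8 and 12 (7854 values of 4, 2724 of 3), so 1 fragment may be worth several counts and intervals from single counts were not used.

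Both rows of Ddit3 were summed. Counts were tested with edgeR 4.0.16 in R 4.3.3 (TMM, filterByExpr at a minimum count of 10, quasi-likelihood test, two-sided, no replicate block, Benjamini-Hochberg over 20152 genes, threshold 0.05). Levels and figures use the deposited FPKM, with 0.5 added before log2. In simulated data the test missed most genes given changes of the size seen among the members. Those genes were drawn from all levels, and fewer were changed than were called here. The share missed there therefore does not describe the members. A member that did not pass is still not shown to be unchanged. Alternatives were other scalings and filters, DESeq2 1.42.0, limma 3.58.1 on FPKM, a replicate block, and each library left out.

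The members and the gene lists were chosen with earlier results of these data known. All 36 members are named; of each further pathway list, up to 4 genes with the smallest p among those that passed; of the markers, Col1a1, Bglap, Jchain, Mzb1 and S100a8. Creb3l1 (in a caption), Igkc, Tnfrsf13b, Sdc1, Ighm, Prdm1, Irf4, Tnfrsf17, Spp1, Phospho1, Fgf23 and Mmp9 were named after their values were seen. Promoters came from RefSeq (GRCm38.p6) and were matched by symbol.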

Additional observations from a re-analysis of the deposited data

Results flagged for a closer look

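Within a group of 4 libraries, 1 library stood far from the other 3 for 8 of the 116 groups examined, of which 72 belonged to the 36 members and gave 2; chance gives about 1 in 20. Among the members, Eif2ak3 was highest in KO 3, at 8.13 FPKM beside 6.77 to 6.91 FPKM in the other KO libraries. Trib3 was highest in KO 4, at 1.89 FPKM beside 0.842 to 1.01 FPKM. Among the other genes named, Ppp1r15b was highest in KO 4, at 58.9 FPKM beside 36.1 to 37.2 FPKM, and lowest in control 3, at 22.9 FPKM beside 26.7 to 27.1 FPKM in the other control libraries. Mbtps1 was lowest in KO 4, at 5.42 FPKM beside 6.32 to 6.45 FPKM. Fkbp9 was lowest in control 4, at 37.6 FPKM beside 45.7 to 45.9 FPKM, and Fkbp14 was highest in control 2, at 5.42 FPKM beside 4.84 to 4.94 FPKM. Col1a1 was highest in KO 1, at 374 FPKM beside 125 to 147 FPKM.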

How the results depend on the processing

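Of 721 values of single members under 21 alternatives, 672 kept their direction and side of the threshold, 19 lost and 8 gained a call, and 22 changed sign. The number of members that fell (2, both chaperones) was 1 with library totals only and 1 with no filter, and with 1 library left out it ran from 0 to 2, as did that of the chaperones. The number that rose (0) was 1, Eif2ak3, with library totals only, a minimum count of 40, DESeq2, limma at either pseudocount and counts divided by 4, and ran from 0 to 1 with 1 library left out. Of the other pathway genes, the number that fell (16) ran from 6 to 16 with 1 library left out; the number that rose (7) was 4 with library totals only, 3 with no filter, 13 with DESeq2, 4 and 4 with limma, and 2 to 6 with 1 library left out. With control 3 and KO 4 both left out, added after seeing the data, 0 members fell (0 chaperones) and 1 rose, and 8 other pathway genes fell and 4 rose. The cause of these differences was not tested.

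With the replicate number as a block, 0 members fell, 0 chaperones fell, and 2 other pathway genes fell and 0 rose; over all genes 28 fell and 28 rose. The labels do not say that a number marks a shared animal or day. The deviations of same-numbered libraries correlated at 0.106, -0.172, 0.092 and -0.055, and those of differently numbered libraries at -0.143 to 0.189. Such correlations cannot settle whether the numbers pair the libraries. Fkbp9 and Fkbp7 kept their calls under the block.

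Some log2 fold changes changed sign. Sec61b was -0.0084 and -0.0085 with limma, and ran from -0.0402 to 0.0711 with 1 library left out. Ssr1 was -0.001 and -0.001 with limma, and ran from -0.0173 to 0.064 with 1 library left out. Derl2 ran from -0.19 to 0.0611, Atf4 from -0.0641 to 0.3212 and the marker Mzb1 from -0.0859 to 0.4825 with 1 library left out. Derl3 was -0.0308 and -0.0594 with limma and -0.0372 with the block, and ran from -0.1072 to 0.2645 with 1 library left out. Chac1 was 0.0034 at a minimum count of 40, 0.0111 with counts divided by 4 and 0.1892 with control 3 and KO 4 left out, and ran from -0.206 to 0.1081 with 1 library left out.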
